A study of Mus musculus with 7 samples.

Results

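The transcription factor p53, encoded by Trp53, and 9 of its direct target genes were followed here in mouse endometrial epithelium with and without deletion of Brg1 by Cre. The 10 genes were taken from a fixed list (Trp53, Mdm2, Bbc3, Pmaip1, Ccng1, Phlda3, Sesn1, Zmat3, Aen and Tnfrsf10b), all 10 were present among the 53379 gene IDs of the count tables, and all 10 passed the filter on low counts that left 14610 genes. No member passed the test between genotypes. Mdm2 came nearest, with a lower level in each mutant library than in any control library after TMM scaling, though not with scaling by total counts.

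RNA was sequenced from EPCAM-positive epithelial cells that had been sorted magnetically from dissociated uteri of CD-1 mice. The 4 mutant libraries each represent 1 mouse aged 120 days of genotype LtfCre 0/+; Brg1 fl/fl, in which Cre recombinase is driven by Ltf (lactoferrin), a gene of the endometrial epithelium, and Brg1 is flanked by loxP sites on both alleles. Brg1 (gene symbol Smarca4) powers SWI/SNF complexes, which move nucleosomes with energy from ATP. The 3 control libraries represent cells pooled from wild-type CD-1 mice, were reused from an earlier series, and have no stated age in the sources used here. No batch held both genotypes, so genotype, pooling and library set cannot be told apart.

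p53 is a sequence-specific activator that is kept scarce by continuous degradation and accumulates after DNA damage and other stress. It then raises a set of target genes that halt the cell cycle, repair DNA or kill the cell, and one of these targets, the ubiquitin ligase Mdm2, sends p53 back to the proteasome. Because this control acts mainly on the protein, Trp53 mRNA and p53 activity need not move together, and the targets are commonly read as the record of activity. Most of these targets also have p53-independent inputs.

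The DNA that p53 recognises consists of paired copies of a half-site. Matches to a single half-site near the start of members are shown here. They are not shown as the elements p53 uses at these genes, nor as evidence that a gene is a target. The p53 half-site consensus, which reads the same on both strands and was allowed to overlap itself, was searched in RefSeq promoter windows (GRCm38.p6) running from 250 bases before to 50 bases after each start. Of the 7 members with an entry, 5 held a match (Trp53, Mdm2, Ccng1, Aen and Sesn1), against 9.55% of 27025 genes, and 6 of 11 member windows held one, against 8.36% of 32851 windows. The Aen windows with a match overlap and hold the same site, so the windows with a match are not all separate sites. Bbc3 and Phlda3 had entries without a match. The stretches for Mdm2 (chr10:117710905-117710974, minus strand), Ccng1 (chr11:40755432-40755501, minus strand) and Sesn1 (chr10:41887236-41887305, plus strand) are printed with the half-site in capitals. Those of Mdm2 and Ccng1 lie outside any GENCODE M21 gene, with the half-site beginning at −186 and −185 from the start. That of Sesn1 lies in an intron, with the half-site at −173 from a start inside the gene.
Mdm2: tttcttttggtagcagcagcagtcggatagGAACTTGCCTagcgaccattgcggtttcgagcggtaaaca
Ccng1: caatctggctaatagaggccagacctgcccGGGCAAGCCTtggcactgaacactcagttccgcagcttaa
Sesn1: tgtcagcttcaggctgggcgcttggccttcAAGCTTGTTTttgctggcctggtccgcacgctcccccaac
The half-sites found for Trp53 and Aen read GGACTTGCCC and GGGCTTGTCC. A match describes the letters only and was not tested for binding.

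Values are counts per 1000000 gene reads after scaling by the trimmed mean of M-values (TMM-scaled CPM). Gene reads numbered 12436971 to 13364080 in mutants and 21372036 to 25862245 in controls, so 3 reads, the floor used here, equal 0.183 to 0.235 TMM-scaled CPM in mutants and 0.136 to 0.159 in controls (counting error only). Smarca4, the targeted gene, stood at 56.7 to 105.4 CPM in mutants and 245.4 to 279 in controls (edgeR adjusted p = 0.00967, and 0.0532 to 0.0612 without any 1 control). Mutant replicate 1 differed from the other mutants in the sum of proliferation markers: 10 such genes summed to 314 CPM in that library. The sum was 1026, 1520.0 and 788 CPM in the other mutants (replicates 2, 3 and 4) and 382 to 620.4 CPM in controls. Top2a, the most abundant of these genes, did not share the low level. It stood at 270, 281, 406 and 247 CPM in mutant replicates 1 to 4 and 115 to 213 CPM in controls. Of the sorted cell type's own markers all 8 were measured, summing to 8170 to 11203 CPM in mutants and 16696 to 20786 in controls, with Krt8 the most abundant. The count of Krt8, and with it the sum, is uncertain, because 26.9% of its 50-base sequence words also occur in other genes. Leukocyte markers summed to 410 to 662 CPM in mutants and 429.8 to 598 in controls, stromal markers to 232 to 541 and 646 to 818, smooth muscle markers to 7.52 to 74.2 and 66.2 to 106, and endothelial markers to 4.22 to 15.9 and 14.5 to 17.4. The most abundant gene of these 4 lists was Cd74, Col1a1, Acta2 and Pecam1 in turn, and Cd3e was at 0 in 1 library.

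In wild-type epithelium the members differed widely in level when divided by exon length. Pmaip1 stood highest at 118 TMM-scaled CPM per kilobase, followed by Ccng1 at 27.3, Trp53 at 20.6, Mdm2 at 19.4, Tnfrsf10b at 15.8, Aen at 10.3, Bbc3 at 6.49, Phlda3 at 4.39, Sesn1 at 3.52 and Zmat3 at 1.31. Among the controls, neighbours in this order overlapped for Trp53 and Mdm2, for Mdm2 and Tnfrsf10b and for Phlda3 and Sesn1, while the other neighbouring pairs did not. The length is the union of all annotated exons, which for Zmat3 comes to 11435 bases.

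No member was called between genotypes with the edgeR quasi-likelihood test (0 of 10 at a Benjamini-Hochberg adjusted p under 0.05, against 11.5% of all tested genes, 5.37% higher and 6.18% lower in mutants). At an unadjusted p under 0.05 the count was 1 of 10, against 31.0% of all tested genes. DESeq2 called 1 member (23.4% of all genes), limma-voom 0 (13.3%), limma-voom with sample quality weights 1 (35.7%) and edgeR with total count scaling 1 (18.7%). No member was called with upper-quartile scaling (12.9%), DESeq2 size factors in edgeR (11.6%), a filter of at least 1 read in any library (3.64%), a mean of at least 1 CPM (11.4%) or unstranded counts (11%). Leaving out mutant replicate 2, 3 or 4 gave no member either (6.75%, 4.21% and 6.34% of all genes), nor did leaving out control replicate 1, 2 or 3 (0.878%, 1.11% and 0.902%). The median log2 fold change of the 10 members was −0.18, against 0.06 for all tested genes, and 4 of 10 had a positive value. Mutant and control ranges were separate for 1 of 10 members, lower in mutants, against 31.5% of all tested genes in either direction and 16.1% lower. In the authors' deposited table, 0 of 10 members lay under an adjusted p of 0.05, against 17.2% of the 18092 genes with an adjusted p there. P-values here cover only how single mice and wild-type pools varied. In such bulk samples, fewer cells of a type and less RNA per cell cannot be told apart.

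**Figure D1:**
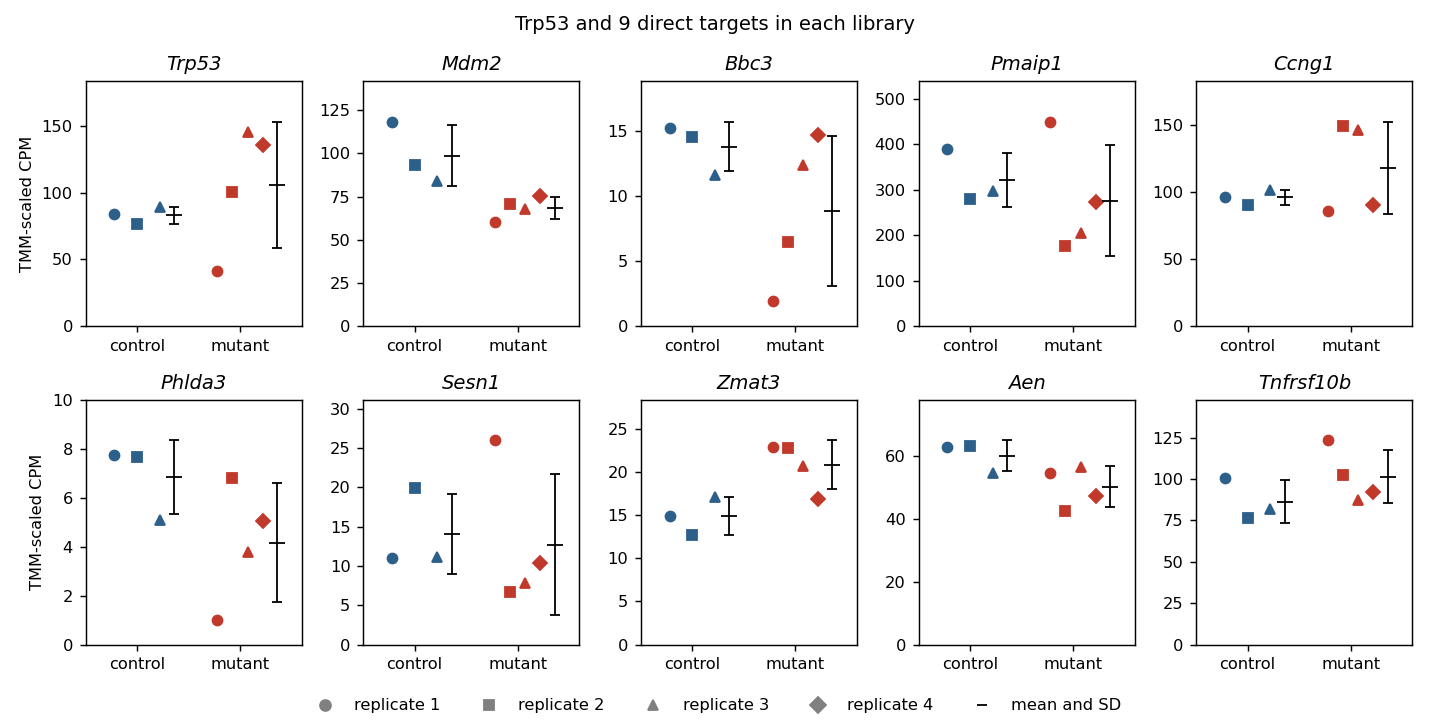
TMM-scaled CPM (vertical axis, from 0) of Trp53 and 9 direct targets in the 3 control and 4 mutant libraries, with symbols for replicates and a bar for the group mean and SD. On this scale only Mdm2 shows separate groups, with mutants at 60.2 to 75.5 and controls at 83.9 to 118.

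Trp53 (ENSMUSG00000059552.13, chromosome 11, 69580359 to 69591873, plus strand, GRCm38) encodes p53 itself. Trp53 stood at 41.0, 100.3, 146 and 136 CPM in mutant replicates 1 to 4 and 83.8, 76.3 and 89.3 CPM in control replicates 1 to 3. Mutant replicate 1 thus lay below every control while the other mutants lay above every control, and the group ranges overlapped. The means were 106 ± 47.5 CPM in mutants and 83.2 ± 6.52 in controls (SD, n = 4 and 3), and the log2 fold change of 0.35 ± 0.40 SE did not pass (95% interval −0.58 to 1.28, edgeR adjusted p = 0.590). Without mutant replicate 1 the value was 0.66 and passed (edgeR adjusted p = 0.0341), in a comparison that called 29.5% of all genes. Leaving out mutant replicate 3 or 4 instead gave 0.16 or 0.21 (edgeR adjusted p = 0.834 and 0.788). The proliferation marker sum was lowest in mutant replicate 1 and highest in mutant replicate 3, as Trp53 was. Top2a, most of that sum in mutant replicate 1, was there above every control. The part of proliferation in the level of Trp53 was not tested.

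Mdm2 (ENSMUSG00000020184.15, chromosome 10, 117688875 to 117710758, minus strand) is the ubiquitin ligase that degrades p53 and is itself among its best known targets. It stood at 60.2, 70.8, 68.1 and 75.5 CPM in mutant replicates 1 to 4 and at 118, 93.6 and 83.9 CPM in the controls. Every mutant lay below every control. The mutants were close together: the SD of log2 CPM was 0.137 among them, lower than for all but 5.18% of tested genes, and 0.253 among controls. The mean went from 98.6 ± 17.7 to 68.6 ± 6.38 CPM, a log2 fold change of −0.52 ± 0.18 SE (95% interval −0.94 to −0.11, unadjusted p = 0.0204, edgeR adjusted p = 0.0992). The value passed with DESeq2 (−0.52, adjusted p = 0.0468) and with limma-voom using sample quality weights (−0.54, adjusted p = 0.0432). It shrank to −0.17 with scaling by total counts alone (edgeR adjusted p = 0.593), where the group ranges overlapped. The authors' deposited table lists −0.51 ± 0.21 SE with an adjusted p of 0.0747.

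Reads of Mdm2 per read of Trp53 give a ratio within each library that no scaling can move. Mutant replicates 1 to 4 had ratios of 1.47, 0.706, 0.467 and 0.554, and the controls 1.41, 1.23 and 0.939. Mutant replicates 2 to 4 lay below all controls and mutant replicate 1 above them. Library by library, then, the mutants held less Mdm2 than any control on the TMM scale whether Trp53 was at its lowest or its highest.

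**Figure D2:**
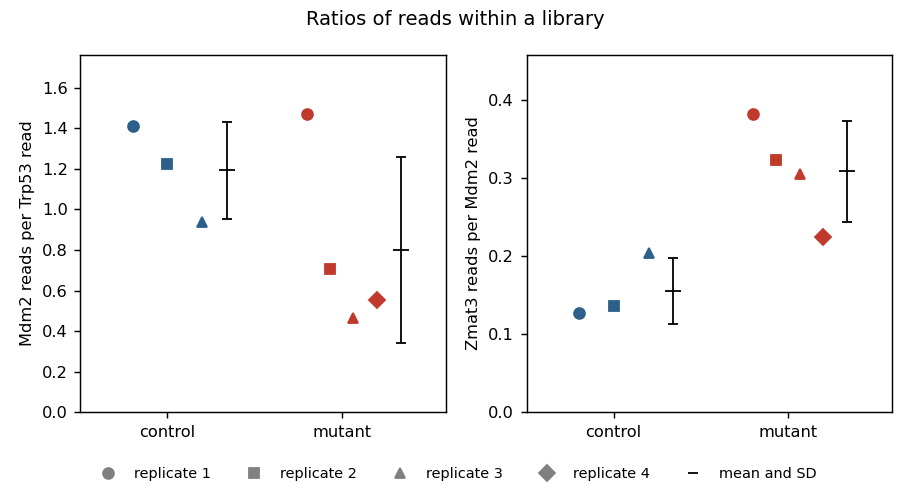
Ratios of reads within each library for the 3 controls and 4 mutants, with Mdm2 per Trp53 at left and Zmat3 per Mdm2 at right (both axes from 0, bars for mean and SD). The Mdm2 to Trp53 ratio overlaps between groups because of mutant replicate 1 at 1.47, while Zmat3 per Mdm2 is 0.225 to 0.382 in mutants and 0.127 to 0.204 in controls.

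The apoptotic targets did not share a pattern. Bbc3 (ENSMUSG00000002083.13, chromosome 7, 16308393 to 16318205, plus strand) encodes PUMA, a BH3-only protein that triggers the mitochondrial route of cell death. It stood at 1.96, 6.44, 12.4 and 14.7 CPM in mutant replicates 1 to 4 and at 15.2, 14.5 and 11.6 CPM in the controls. Mutant replicates 1 and 2 lay below every control and the other two within the control range. The log2 fold change was −0.63 ± 0.59 SE (95% interval −2.002 to 0.73, edgeR adjusted p = 0.502), −0.26 without mutant replicate 1, whose level rests on 25 reads, and −0.98 without mutant replicate 4.

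Pmaip1 (ENSMUSG00000024521.7, chromosome 18) encodes NOXA, another BH3-only protein. Its levels were 449.6, 176, 205 and 272 CPM in mutant replicates 1 to 4 and 389, 280.1 and 296 CPM in the controls. Here mutant replicate 1 was the highest of all 7 libraries and the other mutants lay below every control. The log2 fold change was −0.22 ± 0.34 SE (95% interval −1.01 to 0.57, edgeR adjusted p = 0.690), and −0.51 without mutant replicate 1 (edgeR adjusted p = 0.123). It was −0.0409 without control replicate 1, −0.0535 without mutant replicate 2 and −0.0977 without mutant replicate 3. It turned to 0.12 with total count scaling. Bbc3 reads per Pmaip1 read came to 0.00435 in mutant replicate 1, 0.0365 to 0.0606 in the other mutants and 0.0392 to 0.0517 in controls, so the ratio was lowest in mutant replicate 1.

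Tnfrsf10b (ENSMUSG00000022074.6, chromosome 14, 69767472 to 69784411, plus strand) encodes the mouse death receptor for the ligand TRAIL. It stood at 123, 102.6, 87.2 and 92.0 CPM in mutant replicates 1 to 4 and at 100.8, 76.5 and 81.8 CPM in the controls. The ranges overlapped, with mutant replicates 1 and 2 above every control (log2 fold change 0.23 ± 0.19 SE, 95% interval −0.22 to 0.68, edgeR adjusted p = 0.450). The value was 0.57 with total count scaling and 0.38 without control replicate 1, neither of which passed (edgeR adjusted p = 0.0611 and 0.383).

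Aen (ENSMUSG00000030609.18, chromosome 7, 78895854 to 78911209, plus strand) encodes a nuclease that enhances apoptosis. Its levels were 54.6, 42.3, 56.3 and 47.3 CPM in mutant replicates 1 to 4 and 62.7, 63.0 and 54.5 CPM in the controls. Mutant replicates 2 and 4 lay below every control and replicates 1 and 3 within the control range. The log2 fold change was −0.26 ± 0.17 SE (95% interval −0.66 to 0.14, edgeR adjusted p = 0.341). With total count scaling the value was 0.09.

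Phlda3 (ENSMUSG00000041801.5, chromosome 1, 135766119 to 135769136, plus strand) encodes a small pleckstrin homology protein that holds back the kinase Akt. It stood at 1.02, 6.83, 3.78 and 5.06 CPM in mutant replicates 1 to 4 and at 7.75, 7.67 and 5.09 CPM in the controls. Mutant replicates 1, 3 and 4 lay below every control, replicate 1 with 13 reads, and replicate 2 lay within the control range. The log2 fold change was −0.71 ± 0.56 SE (95% interval −2.02 to 0.60, edgeR adjusted p = 0.428), −0.34 without mutant replicate 1 and −1.04 without mutant replicate 2.

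The remaining targets are Ccng1, Sesn1 and Zmat3. Ccng1 (ENSMUSG00000020326.7, chromosome 11, 40748552 to 40755311, minus strand) encodes cyclin G1, which recruits a phosphatase to Mdm2. Its levels were 85.8, 149, 146 and 90.6 CPM in mutant replicates 1 to 4 and 95.9, 90.5 and 101.4 CPM in the controls. Mutant replicates 2 and 3 stood above every control, replicate 1 below every control and replicate 4 at their lower edge, for a log2 fold change of 0.30 ± 0.25 SE (95% interval −0.28 to 0.88, edgeR adjusted p = 0.453). The value was 0.17 without mutant replicate 2, 0.19 without mutant replicate 3, 0.46 without mutant replicate 1 and 0.65 with total count scaling, none of which passed.

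Sesn1 (ENSMUSG00000038332.13, chromosome 10, 41809935 to 41908424, plus strand) encodes sestrin 1, a stress-induced inhibitor of mTORC1 signalling. It stood at 26.0, 6.67, 7.77 and 10.4 CPM in mutant replicates 1 to 4 and at 11.03, 19.9 and 11.1 CPM in the controls. Mutant replicate 1 was above all controls and the other mutants below all of them, as for Pmaip1. The log2 fold change was −0.14 ± 0.52 SE (95% interval −1.35 to 1.06, edgeR adjusted p = 0.876). It was −0.72 without mutant replicate 1 (edgeR adjusted p = 0.145), and it turned to 0.07, 0.04 and 0.24 without mutant replicate 2, mutant replicate 3 and control replicate 2.

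Zmat3 (ENSMUSG00000027663.12, chromosome 3, 32334792 to 32366014, minus strand) encodes an RNA-binding zinc finger protein that acts on splicing and mRNA stability. Its levels were 23.0, 22.9, 20.8 and 16.9 CPM in mutant replicates 1 to 4 and 15.0, 12.7 and 17.1 CPM in the controls. Mutant replicates 1 to 3 lay above every control and replicate 4 just below the highest. The mean went from 14.9 ± 2.20 to 20.9 ± 2.82 CPM, a log2 fold change of 0.49 ± 0.21 SE (95% interval −0.01 to 0.98, edgeR adjusted p = 0.167). With total count scaling it was 0.83 and passed (edgeR adjusted p = 0.0305). The authors' deposited table lists 0.50 ± 0.24 SE with an adjusted p of 0.137.

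**Figure D3:**
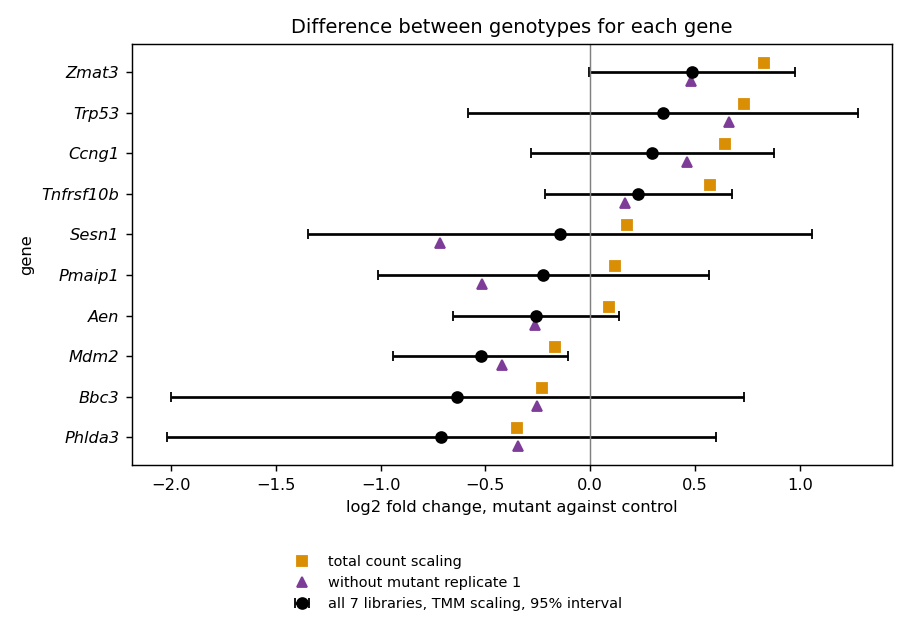
Log2 fold change of each member, mutant against control (horizontal axis), with its 95% interval in the fit of all 7 libraries (black), and the values with total count scaling (squares) and without mutant replicate 1 (triangles). The interval of Mdm2, −0.94 to −0.11, is the only one that leaves out 0, and squares lie to the right of every black point.

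Mdm2 and Zmat3, the members with the lowest adjusted p-values, differed in opposite directions, and their ratio was therefore looked at after their values had been seen. Mutant replicates 1 to 4 held 0.382, 0.323, 0.306 and 0.225 Zmat3 reads per Mdm2 read, and the controls 0.127, 0.136 and 0.204. The ratio was higher in every mutant than in every control, whatever the scaling, as a description without a test. The scaling did decide which single members stood apart. With total count scaling, the mutant range lay above the control range for 3 of 10 members (Ccng1, Zmat3 and Tnfrsf10b), against 27.0% of all tested genes, and below it for 0, against 8.55% (35.6% in either direction).

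How far the mutants varied differed from member to member. The SD of log2 CPM among mutants was 1.29 for Bbc3, 1.15 for Phlda3, 0.87 for Sesn1, 0.84 for Trp53, 0.59 for Pmaip1, 0.43 for Ccng1, 0.22 for Tnfrsf10b, 0.205 for Zmat3, 0.19 for Aen and 0.137 for Mdm2, 5 above and 5 below the median of 0.519 over all tested genes. On the TMM scale mutant replicate 1 was the lowest of all 7 libraries for 5 members (Trp53, Mdm2, Bbc3, Ccng1 and Phlda3) and the highest for 4 (Pmaip1, Sesn1, Zmat3 and Tnfrsf10b), 9 of 10 in all, against 45.4% of all tested genes. For Zmat3 it barely exceeded mutant replicate 2 (22.998 and 22.860 CPM). With total count scaling it was not the highest for Zmat3 (23.6, beside 23.8 in mutant replicate 2). Nor was it then the lowest for Ccng1 (88.2, beside 80.0 in control replicate 2). Relative to the control mean, mutant replicate 1 was at −2.82 for Bbc3, −2.75 for Phlda3 and −1.02 for Trp53 on the log2 scale, and at 0.89 for Sesn1 and 0.48 for Pmaip1. In the controls the SD ran from 0.0821 for Ccng1 to 0.483 for Sesn1, against a median of 0.235.

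**Figure D4:**
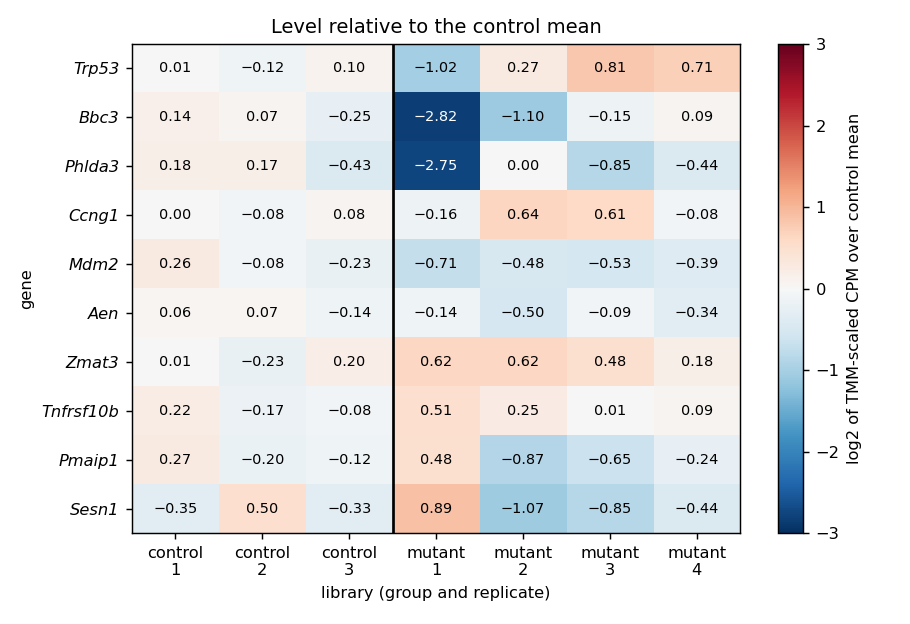
Log2 of the TMM-scaled CPM over the control mean for each member (rows) and library (columns), blue for lower and red for higher. Mutant replicate 1 holds the extremes, from −2.82 for Bbc3 to 0.89 for Sesn1, and Mdm2 is below 0 in all 4 mutants.

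Genes whose profile over the 7 libraries was most like that of Trp53 were Crip1, Trim28 and Crtap, with a root mean square difference of 0.132, 0.166 and 0.167 between centred log2 CPM values, against a median of 0.708 over 10689 genes. For Mdm2 they were Wac, Atxn2 and Tspan8, at 0.0951, 0.0985 and 0.104 against a median of 0.554. No member was among these nearest 3 of either gene.

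The wider p53 pathway was read from 5 lists of 68 further genes, of which 67 were tested. Of these, 8 passed, 3 higher and 5 lower in mutants, a share of 11.9% beside the 11.5% of all tested genes. The higher ones include Cdkn2a, which passed the filter on low counts only through mutant libraries, so its call is not read as support. The median log2 fold change of the 67 was 0.12, against 0.06. The ranges of the groups were separate for 20 of the 67, 11 higher and 9 lower, against 31.5% of all tested genes. The count of 8 fell to 2 without mutant replicate 4 (3.03% of those tested, beside 6.34% of all genes). It also fell to 2 without any 1 control (2.99%, beside 0.878% to 1.11%). The count was 3 and 5 without mutant replicates 3 and 2 (4.55% and 7.58%, beside 4.21% and 6.75%). Without mutant replicate 1 it was 27 (40.3%, beside 29.5%). Without any 1 control, Gdf15 and Sesn2 still passed, while Crebbp, Cdkn2a, Cdkn1a, Rrm2b, Tap1 and Slc19a2 did not.

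Among 19 tested regulators of p53, 1 was higher and 1 lower (10.5%, beside 11.5% of all tested genes, 5.37% higher and 6.18% lower). With total count scaling 8 were higher and 0 lower (18.7% of all genes called). The calls were 6 higher and 2 lower with quality weights (35.7%), and 5 higher and 2 lower without mutant replicate 1 (29.5%). Leaving out any other library gave no call (0.878% to 6.75%). The acetyltransferase Crebbp, a coactivator of p53, stood at 121, 104, 97.0 and 113 CPM in mutant replicates 1 to 4 and at 210.2, 179 and 178 in the controls (log2 fold change −0.80 ± 0.16 SE, edgeR adjusted p = 0.0243). Every mutant was below every control. Cdkn2a, of whose products ARF inhibits Mdm2, was higher, with 6, 29, 63 and 48 reads in the mutants and 4, 1 and 0 in the controls (edgeR adjusted p = 0.0362), so that 2 of 3 controls were under the floor of 3 reads. Counts per gene do not tell its products apart. Cdkn2a passed the filter on low counts only through mutant libraries, so its p-value is not read as support. It dropped out of the test without mutant replicate 2, 3 or 4. Usp7, a deubiquitinase of Mdm2 and p53 and the most abundant regulator, did not pass (−0.11 ± 0.22 SE, edgeR adjusted p = 0.772).

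Of 12 tested targets that arrest the cycle or signal stress, 3 were called lower and 0 higher. Of all tested genes, 6.18% were called lower and 5.37% higher. The log2 fold change was positive for 7 of the 12 (median 0.185). Without mutant replicate 1, 5 were called higher and 4 lower (29.5% of all genes called). The calls were 3 higher and 4 lower with quality weights (35.7%), and 2 higher and 3 lower with total count scaling (18.7%). They were 1 higher and 2 lower without mutant replicate 3 (4.21%). Without mutant replicate 4 (6.34%) or any 1 control (0.878% to 1.11%) they were 0 higher and 2 lower. Cdkn1a no longer passed without mutant replicate 3, mutant replicate 4 or any 1 control. The growth factor Gdf15 stood at 6.83 to 38.5 CPM in mutants and 570.2 to 759 in controls (−4.59 ± 0.57 SE, edgeR adjusted p = 0.00712). Cdkn1a, the kinase inhibitor p21, was at 94.4, 205, 135 and 125 CPM in mutants and 412, 276 and 383 in controls, and Sesn2, the paralogue of Sesn1, at 9.54, 19.3, 18.5 and 19.4 against 132, 106 and 102 (edgeR adjusted p = 0.0297 and 0.00509). All 3 were lower in every mutant, whereas Sesn1 overlapped. Gadd45a, the most abundant of the list, had a log2 fold change of −0.87 ± 0.27 SE without passing (edgeR adjusted p = 0.0790).

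None of 14 apoptosis and autophagy targets passed the edgeR test, where 11.5% of all tested genes did, and 3 had an unadjusted p under 0.05, where 31.0% of all did. DESeq2 called 2 of the 14 (14.3%, beside 23.4% of all genes) and limma-voom with quality weights 5 (35.7%, beside 35.7% of all genes). Trp53inp1, the most abundant, ran from 122 to 767 CPM in mutants and 279 to 371 in controls (0.09 ± 0.55 SE, edgeR adjusted p = 0.926), with mutant replicate 1 at the top as for Sesn1 and Pmaip1. Of 7 DNA repair and nucleotide targets, 1 was called (14.3%, beside 11.5% of all tested genes). This was Rrm2b, a ribonucleotide reductase subunit induced by p53. It was higher, at 30.4, 18.9, 16.9 and 17.2 CPM in mutants and 10.97, 9.79 and 8.09 in controls (1.12 ± 0.29 SE, edgeR adjusted p = 0.0468). Pcna, the most abundant of them, had a value of 0.16 (edgeR adjusted p = 0.834), and its count is uncertain, because 19.1% of its 50-base sequence words also occur in other genes. Of 15 metabolic and other targets, 2 were called (13.3%, beside 11.5% of all tested genes). The peptide transporter Tap1 was higher (1.30 ± 0.30 SE, edgeR adjusted p = 0.0361) and the thiamine transporter Slc19a2 lower (−1.29 ± 0.33 SE, edgeR adjusted p = 0.0483). The abundant peroxidase Gpx1 did not pass (−1.07 ± 0.53 SE, edgeR adjusted p = 0.212). The 15 gave 7 calls with quality weights (46.7%, beside 35.7% of all genes) and 0 without mutant replicate 3 or 4 (4.21% and 6.34% of all genes).

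**Figure D5:**
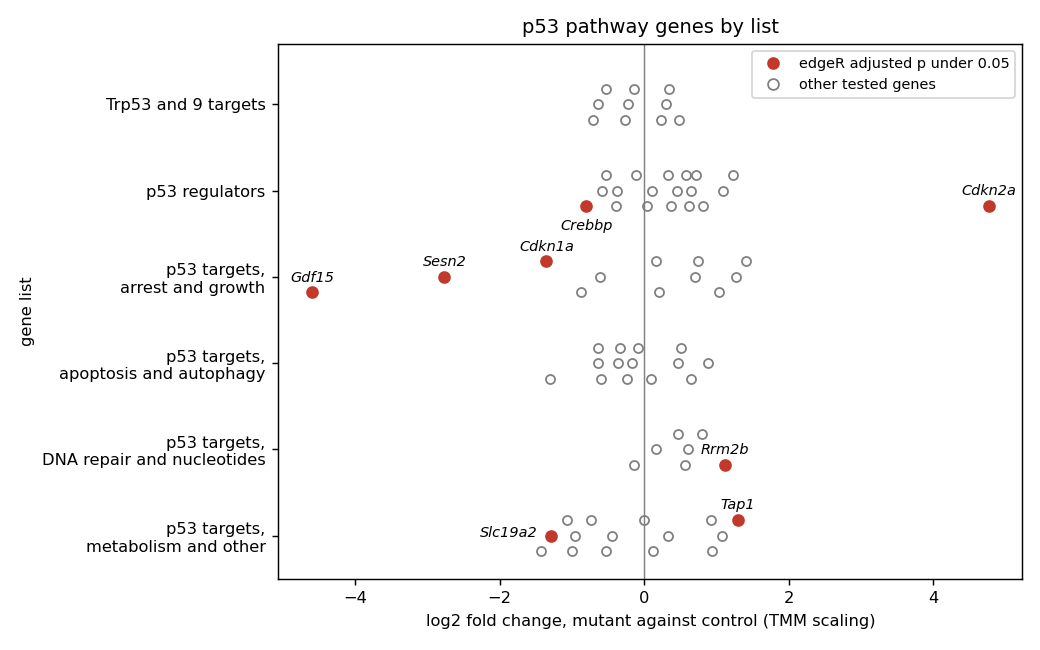
Log2 fold change, mutant against control, for Trp53 and 9 targets and for the 5 other p53 lists, 1 point per tested gene, filled and named where the edgeR adjusted p was under 0.05. The 10 members lie between −0.71 and 0.49 with no filled point, while the lowest filled point is Gdf15 at −4.59. The position of Cdkn2a rests on controls with 4, 1 and 0 reads, and its filled point is not read as support.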

How the data were processed

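The authors deposited, for each library, a table of whole-number counts of reads per gene, not normalized. The submitters' processing notes name STAR, cutadapt, Trim Galore, FastQC and DESeq2 and the build mm10; no versions are stated there. A second table that the authors deposited holds their own comparison, with log2 fold changes and adjusted p-values per gene per the file headers; its mean signal, test score and weight columns, deposited by the authors, were left aside. Counts came from the reverse-strand column, which held 94.8% to 95.6% of both stranded columns; for each member they held 95.8% to 99.8%. Reads in no gene (25.3% to 30.5% of a library) stayed out of library sizes. Of 53379 gene IDs, 53274 matched GENCODE M21 (GRCm38).

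Genes kept by filterByExpr went into edgeR 4.0.16 (R 4.3.3) and its quasi-likelihood F test (TMM scaling, a two-sided test of genotype with no further covariate, Benjamini-Hochberg over 14610 genes, threshold 0.05), after a trial on simulated data. With 200 genes changed per simulation, the fit called 1.55% of 2-fold and 31.6% of 4-fold changes. Fewer genes changed there than were called here, so these shares do not carry over directly. The largest fold change of a member was 1.64 (Phlda3), so a member without a call is not read as unchanged. Alternatives used limma 3.58.1 and DESeq2 1.42.0, other scalings, filters and columns, and each library left out. Members shared 0% to 5.80% of their 50-base words with other genes' transcripts, and none shared exon bases with another annotated gene. The members and lists were chosen with earlier results of these data known. Named genes were the members, and per p53 list up to 3 called genes by size of change (mean at or above 1 CPM) plus the most abundant gene, and per marker list the most abundant gene; for Trp53 and Mdm2 the 3 nearest profiles among genes with a mean of at least 5 CPM.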

Additional observations from a re-analysis of the deposited data

Results flagged for a closer look

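Among the 30 named genes, 4 had 1 mutant library far from the other mutants, by Dixon's test at the 95% level in 4 libraries; chance alone flags about 5% of such groups. No member was among them. Gdf15 was lowest in mutant replicate 2, at 6.83 CPM beside 33.9 to 38.5, a gap of 0.857 of the range. Sesn2 was lowest in mutant replicate 1, at 9.54 CPM beside 18.5 to 19.4 (0.909 of the range), and Rrm2b was highest there, at 30.4 CPM beside 16.9 to 18.9 (0.857). The stromal gene Col1a1 was highest in mutant replicate 3, at 145.5 CPM beside 38.1 to 50.1 (0.888).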

How the results depend on the processing

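The count of called members was 0 with all libraries and 1 in each of 4 alternatives: total count scaling (Zmat3), DESeq2 and limma-voom with sample quality weights (Mdm2 in both), and the removal of mutant replicate 1 (Trp53), so leaving out 1 library gave 0 to 1. Over the same alternatives without a library removed, the 1687 called genes became 2734 with total count scaling, 1057 with every gene holding at least 1 read, 3423 with DESeq2, 5219 with quality weights and 2 with the replicate block, and 133 to 4403 when 1 library was left out. The 8 other p53 pathway genes became 18, 4, 13, 29 and 0 in the same order, and 2 to 27 when 1 library was left out. Total count scaling moved the median of all genes to 0.41 and the split of called genes from 784 higher and 903 lower to 2202 and 532 (upper-quartile scaling gave 0.20, with 1178 and 704). It turned Pmaip1 (0.12), Sesn1 (0.18), Aen (0.0909) and Usp7 (0.24) positive. Usp7 was also 0.0273 with upper-quartile scaling and 0.0162 with quality weights, and Trp53inp1 was −0.21 with limma-voom, −0.73 with quality weights and −0.19 with the replicate block, under which Pcna was −0.00417 and Trp53 0.0353. With 1 library left out, the value ran from −0.72 to 0.24 for Sesn1, −0.22 to 0.0579 for Usp7, −0.55 to 0.39 for Trp53inp1 and −0.12 to 0.48 for Pcna. The cause was not tested. Replicate numbers did not pair the libraries (correlations of same-numbered deviations −0.02, −0.362 and 0.155), so calls lost under the block are not read as weaker effects. The fewest reads behind a member were 13, for Phlda3 in mutant replicate 1.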
